A study of Mus musculus with 30 samples.

Results

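De novo lipogenesis, the making of fatty acids from carbohydrate and amino acid carbon, was followed at the transcript level in the livers of mice fed casein or soy protein with more or less methionine and cysteine. The 10 genes described are *Srebf1*, *Acly*, *Acaca*, *Acacb*, *Fasn*, *Elovl6*, *Scd1*, *Me1*, *Thrsp* and *Pnpla3*. They were taken by symbol from the 14173 genes of the count table, and all 10 were found and passed the low-count filter in every comparison. The 30 livers, 6 per diet, came from male C57BL6/J mice labelled as 6 months old. The mice were housed singly, assigned to their diets at 12 weeks of age, kept on them for 12 weeks and fasted for 4 h before the liver was taken. Cas-20% held 20% casein with 0.57 g methionine and 0.41 g cysteine per 100 g of diet, and Cas-5% held 5% casein with 0.15 g and 0.1 g. Soy-20% held 20% soy protein with 0.22 g of each amino acid, Soy-20% + SAA was the same diet raised to 0.58 g methionine and 0.41 g cysteine, and Soy-10% held 0.13 g of each, at 11.5% soy protein by its label. Before the switch the mice ate the 20% diet of their own protein source. By these contents Cas-20% and Soy-20% + SAA are the controls matched for sulfur amino acids, and Cas-5% and Soy-10% are the restricted diets. Protein content falls together with methionine and cysteine in each restriction, while corn starch and maltodextrin rise by the paper's diet table.

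The transcription factor SREBP-1c, made from *Srebf1*, begins as a membrane-bound precursor in the endoplasmic reticulum. Its active part is released by proteolysis when insulin is high and then drives the genes of fatty acid synthesis in the liver. Citrate exported from mitochondria is cleaved to acetyl-CoA by ATP citrate lyase (*Acly*), carboxylated to malonyl-CoA by the acetyl-CoA carboxylases (*Acaca*, *Acacb*) and polymerized to palmitate by fatty acid synthase (*Fasn*). *Elovl6* elongates and *Scd1* desaturates the product, malic enzyme (*Me1*) supplies NADPH, and *Thrsp* and *Pnpla3* are a lipogenic cofactor and a lipid droplet acylhydrolase induced with them. Reads were taken from the end of transcripts and counted per gene, so a level is a number of reads that does not scale with transcript length, and products of the separate starts of *Srebf1* were not told apart. In whole liver, fewer cells of a type and less RNA per cell cannot be told apart.

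RefSeq start-site windows of GRCm38.p6, 250 bases before to 50 after each start and written along the gene, were matched by symbol for 9 of the 10 genes, 12 windows in all, with no entry for *Scd1*. Those of *Srebf1*, the regulator, and of *Fasn* and *Thrsp*, the 2 genes without overlap between control and restricted livers in both protein sources, are shown so that regulator and lipogenic genes can be read beside each other. Capitals mark CCAAT, the core of the box bound by NF-Y, and GGGCGG, a GC box, each on either strand. In *Fasn* a pair of CCAAT matches on opposite strands overlaps.
Srebf1, chr11:60222532-60222831, minus strand: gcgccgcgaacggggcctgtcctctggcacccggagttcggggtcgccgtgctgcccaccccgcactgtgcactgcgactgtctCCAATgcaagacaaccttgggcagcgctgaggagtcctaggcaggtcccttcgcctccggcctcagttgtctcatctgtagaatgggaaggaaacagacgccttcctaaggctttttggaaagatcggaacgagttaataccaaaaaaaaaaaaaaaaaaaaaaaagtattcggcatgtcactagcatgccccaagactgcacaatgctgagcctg
Srebf1, chr11:60220578-60220877, minus strand: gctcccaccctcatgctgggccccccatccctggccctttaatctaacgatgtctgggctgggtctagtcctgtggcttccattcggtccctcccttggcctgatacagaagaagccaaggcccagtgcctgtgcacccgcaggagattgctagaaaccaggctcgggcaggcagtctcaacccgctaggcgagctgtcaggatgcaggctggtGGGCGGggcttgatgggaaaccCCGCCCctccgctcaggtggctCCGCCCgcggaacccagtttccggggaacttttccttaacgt
Srebf1, chr11:60210422-60210721, minus strand: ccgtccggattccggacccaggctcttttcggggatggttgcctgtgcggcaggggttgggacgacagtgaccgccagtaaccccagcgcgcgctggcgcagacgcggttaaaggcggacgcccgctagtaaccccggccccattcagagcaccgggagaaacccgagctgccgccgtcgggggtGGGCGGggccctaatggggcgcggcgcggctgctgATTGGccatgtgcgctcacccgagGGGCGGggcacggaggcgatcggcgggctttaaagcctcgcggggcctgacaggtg
Fasn, chr11:120824498-120824797, minus strand: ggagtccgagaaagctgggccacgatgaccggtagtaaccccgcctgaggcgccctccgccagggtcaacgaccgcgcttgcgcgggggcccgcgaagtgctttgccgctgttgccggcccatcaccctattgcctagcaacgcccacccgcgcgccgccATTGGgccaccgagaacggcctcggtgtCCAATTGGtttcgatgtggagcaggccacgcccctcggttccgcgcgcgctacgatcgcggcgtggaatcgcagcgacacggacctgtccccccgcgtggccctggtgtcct
Thrsp, chr7:97417501-97417800, minus strand: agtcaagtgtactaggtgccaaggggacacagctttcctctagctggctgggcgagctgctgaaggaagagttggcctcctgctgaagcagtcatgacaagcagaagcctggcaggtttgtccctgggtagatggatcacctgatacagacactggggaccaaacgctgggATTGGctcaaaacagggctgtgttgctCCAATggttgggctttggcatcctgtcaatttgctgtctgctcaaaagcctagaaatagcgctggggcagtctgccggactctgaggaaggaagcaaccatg

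CCAAT stood in 8 of the 12 windows, belonging to 7 of the 9 genes, against 37.4% of 32851 mouse windows of the same length. In *Fasn* the matches began 90, 62 and 59 bases before the start and in *Thrsp* 79 and 52 bases before it. GGGCGG stood in 5 of the 12 windows, belonging to 4 of the 9 genes (*Srebf1*, *Acly*, *Me1* and *Pnpla3*), against 35.7% of all windows. A sterol regulatory element written as TCACNCCAC was found in 0 of the 12 windows (1.24% of all windows), and the palindromic E-box CACGTG in 0 of 12 (7.15%). These letters are a description of the windows alone.

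Libraries held between 7694015 and 14565542 counted reads, with a median of 10803734. The 4 libraries Soy-20% + SAA 3 to 6 stood apart from the other 26. In them, transcripts with a GC-rich end were read more often, with slopes of 0.0596, 0.186, 0.178 and 0.203 log2 units per 10 percentage points of GC in the last 200 bases, whereas the other libraries had slopes between −0.062 and 0.0261. The tests of the lipogenic genes against Soy-20% + SAA that were called are therefore also given with livers 1 and 2 of that diet alone, in a fit where those 2 livers share the spread of the other group, and some with the slope of each library as a covariate. The GC content of the last 200 bases ran from 34% in *Elovl6* to 58.5% in *Pnpla3*, against a median of 40.5% over tested genes, with *Srebf1* at 42.5% and *Fasn* at 39.5%. These fits are the only tests of that feature made.

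*Srebf1* (ENSMUSG00000020538, chr11:60199089-60222581, minus strand, GRCm38) was highest on Cas-20% and lowest on Soy-20% + SAA. Normalized read counts on Cas-20% were 2100, 1990, 1533, 1078, 1341 and 1082 in livers 1 to 6. On Cas-5% they ran from 299 to 453 with a median of 410. No liver of Cas-5% reached any of Cas-20%, and the mean fell 3.81-fold (log2 change −1.93, 95% interval −2.28 to −1.58, edgeR adjusted p = 3.5e-07). The soy diets gave another picture. Soy-20% livers ran from 493 to 1082 (median 580), Soy-10% livers from 351 to 547 (median 458), and Soy-20% + SAA livers were at 635, 551, 344, 144, 249 and 312. The 4 lowest values of that last group are livers 3 to 6, the libraries that stood apart. Against Soy-20% + SAA, Soy-10% was not called (log2 change 0.29, interval −0.28 to 0.86, edgeR adjusted p = 0.468). With livers 1 and 2 alone the sign turned to −0.39 (interval −0.68 to −0.10, edgeR adjusted p = 0.174). Against Soy-20% the change of Soy-10% was −0.61 (interval −0.99 to −0.24, edgeR adjusted p = 0.126). *Rai1* overlaps *Srebf1* on the opposite strand, and the strand setting of the counting is not given in the sources used here.

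**Figure D1:**
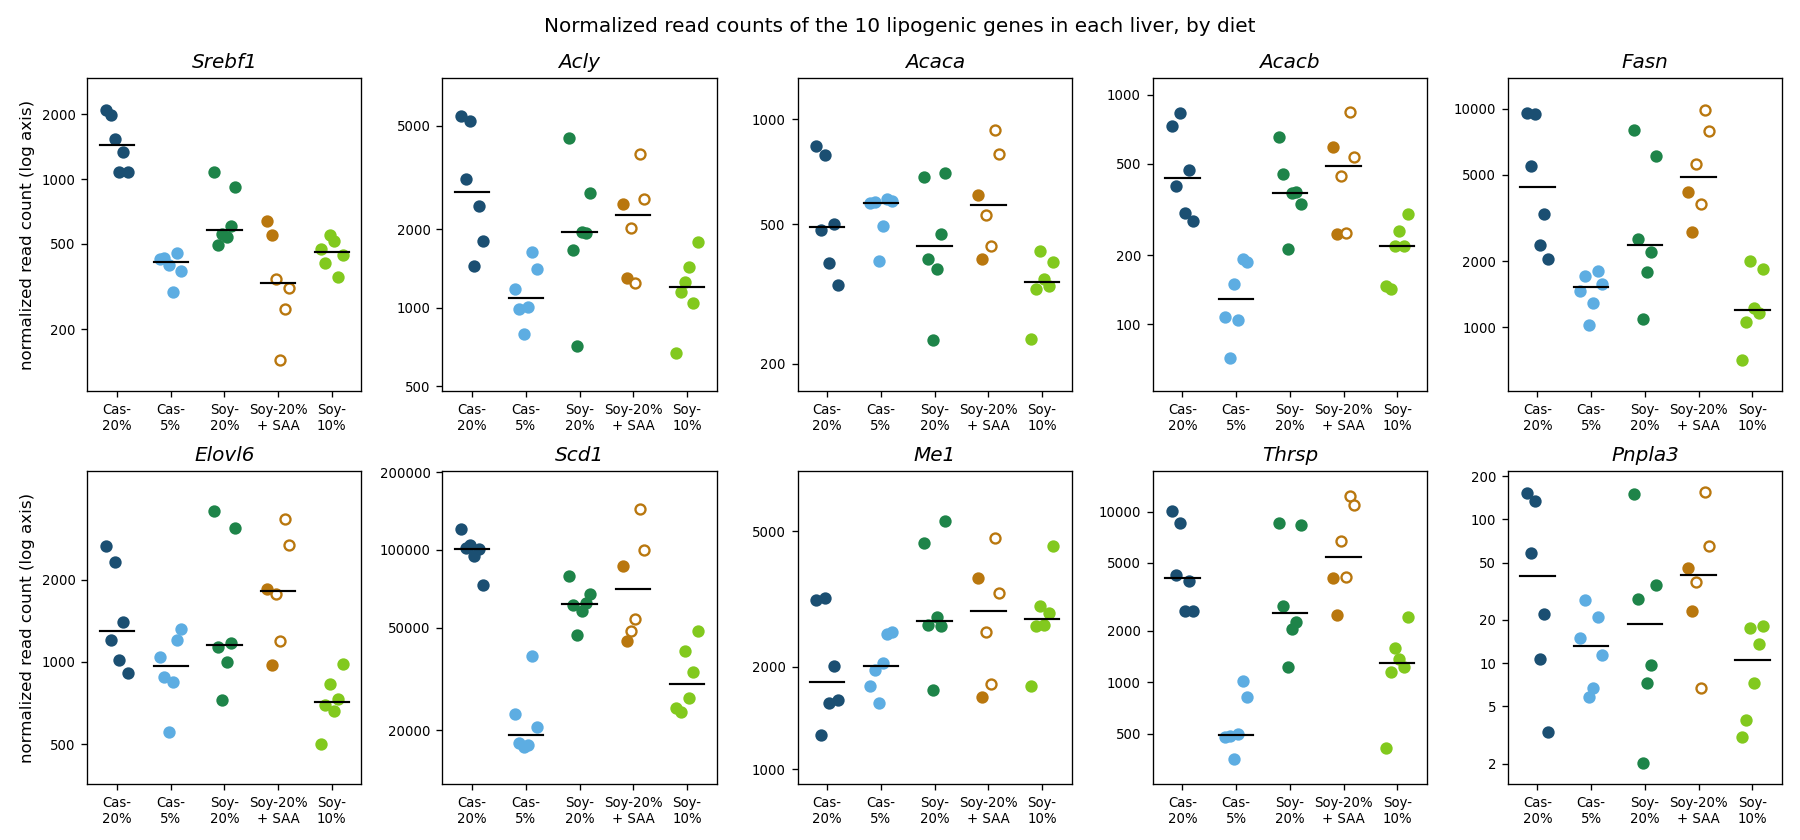
Normalized read counts (log axis) of the 10 lipogenic genes in each of 30 livers, by diet. Points are livers, open points are Soy-20% + SAA livers 3 to 6, and the black line is the median of 6. Srebf1 lies between 144 and 344 in the open points, while Fasn reaches 9854 and Thrsp 12282 among them.

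Of the 10 genes, 7 fell on Cas-5% against Cas-20% and 0 rose, with 24.9% of all 12076 genes called in that comparison, 13.3% lower and 11.6% higher. In 5 of the 7 (*Srebf1*, *Acacb*, *Fasn*, *Scd1* and *Thrsp*) no Cas-5% liver reached a Cas-20% liver, which held for 7.73% of all genes. All 10 estimates were below 0, with a median log2 change of −1.85 against 0.0161 over all genes tested. Against Soy-20% + SAA, 8 fell on Soy-10% and 0 rose, with 17.0% of 11983 genes called, 8.47% lower and 8.51% higher. In 2 of the 8 (*Fasn* and *Thrsp*) the groups did not overlap, against 3.31% of all genes. The median of the 10 was −1.23, against −0.00969 over all genes. With Soy-20% + SAA livers 1 and 2 alone 2 of the 10 were called, where 2.54% of all genes were called, and with the GC slope of each library as a covariate 1 was called, where 3.19% were, while 9 of 10 estimates stayed below 0 in both fits. Against Soy-20%, 1 of the 10 fell on Soy-10%, with 0.866% of 11897 genes called and 0.546% called lower. All 10 estimates were below 0 there (median −0.92). Over all 5 diets, 9 of the 10 differed, all but *Me1* (edgeR adjusted p = 0.11), with 43.4% of 12561 genes called, and 8 differed with Soy-20% + SAA livers 1 and 2 alone, where 26.2% were called. Marker genes of other cell types moved in the casein comparison too. The summed skeletal muscle markers were 4.83 to 13.3 normalized reads on Cas-20% and 37.0 to 88.3 on Cas-5%, the red blood cell markers 15728 to 34944 and 11503 to 19812, and the adipocyte markers 428 to 684 and 403 to 504. Their part in the result was not tested.

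**Figure D2:**
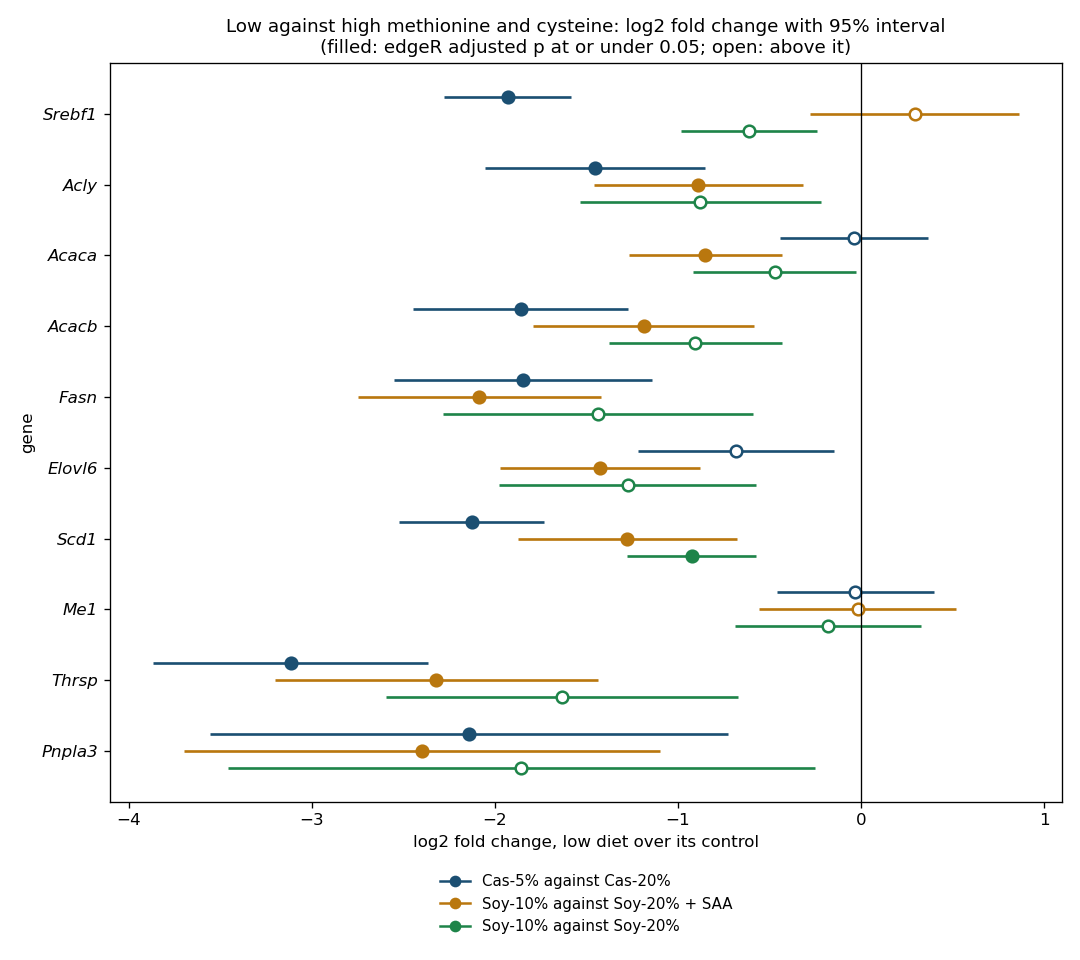
Log2 fold change of each gene on the restricted diet against its control (x axis), with 95% intervals, for Cas-5% against Cas-20%, Soy-10% against Soy-20% + SAA and Soy-10% against Soy-20%. Filled points are called at an edgeR adjusted p of 0.05. Thrsp lies farthest to the left in casein at −3.11, Me1 lies near 0, and Srebf1 is at −1.93, 0.29 and −0.61.

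*Acly* (chr11:100476353-100528000) supplies the acetyl-CoA. Its normalized read counts ran from 1449 to 5422 on Cas-20% (median 2788) and from 796 to 1640 on Cas-5% (median 1094). The groups overlapped in 1449 to 1640, and the level fell 2.74-fold (log2 change −1.45 ± 0.28 SE, edgeR adjusted p = 0.00119). On Soy-20% + SAA it ran from 1244 to 3893 (median 2262), and on Soy-10% from 669 to 1791 (median 1206). The fall of 0.89 on the log2 scale was called (edgeR adjusted p = 0.0354) but rested on single livers. It was called in 5 of the 12 fits that left out 1 liver, with a highest edgeR adjusted p of 0.084, and the estimate was −0.67 without Soy-20% + SAA liver 5. With livers 1 and 2 alone it was −0.65 (edgeR adjusted p = 0.266).

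The carboxylases are a pair of enzymes with separate roles. *Acacb* (chr5:114146535-114250761), whose product at the mitochondrion restrains fatty acid oxidation, ran from 282 to 831 on Cas-20% and from 71.2 to 193 on Cas-5%, with no overlap, and fell 3.63-fold (log2 change −1.86 ± 0.28 SE, edgeR adjusted p = 0.000116). *Acaca* (chr11:84129672-84401651), the cytosolic form that feeds fatty acid synthase, ran from 334 to 835 on Cas-20% and from 392 to 591 on Cas-5%. Its log2 change was −0.04 (interval −0.45 to 0.37, edgeR adjusted p = 0.905). On soy both were called against Soy-20% + SAA, *Acacb* at −1.19 (edgeR adjusted p = 0.0135) and *Acaca* at −0.85 (edgeR adjusted p = 0.0116). With livers 1 and 2 alone the values were −0.99 (edgeR adjusted p = 0.0959) and −0.56 (edgeR adjusted p = 0.133). The difference between carboxylases was not tested. *Gm11437* overlaps *Acaca* on the opposite strand.

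*Fasn* (chr11:120805846-120824547) spread widely on the control diets. Livers 1 to 6 were at 9594, 5483, 9432, 2384, 3291 and 2056 on Cas-20%. Livers 1 to 3, the 3 with most *Fasn*, were also the 3 with most *Srebf1*. On Cas-5% *Fasn* was narrow, from 1022 to 1801, and its coefficient of variation was 19.4% against 63.7% on Cas-20%. It fell 3.6-fold (log2 change −1.85 ± 0.33 SE, edgeR adjusted p = 0.000597), with no overlap. On Soy-20% + SAA the livers held 4174, 2738, 5563, 3648, 9854 and 7953, all above the Soy-10% livers, which ran from 711 to 2012. The fall was 4.24-fold (log2 change −2.08 ± 0.31 SE, edgeR adjusted p = 0.0011). With livers 1 and 2 alone it was −1.38 (edgeR adjusted p = 0.0174), and with the GC slope as covariate −1.45 (edgeR adjusted p = 0.0186). No other of the 10 genes was called in both of these fits. Against Soy-20%, whose livers ran from 1095 to 8007, the change was −1.44 (interval −2.28 to −0.59, edgeR adjusted p = 0.115).

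*Elovl6* (chr3:129532355-129638495), which lengthens palmitate to stearate, ran from 908 to 2647 on Cas-20% and from 554 to 1320 on Cas-5%. The groups overlapped and the log2 change of −0.68 was not called (interval −1.22 to −0.15, edgeR adjusted p = 0.0587). It passed in 4 of the 12 fits without 1 liver. In these fits the change ran from −0.80 without Cas-20% liver 6 to −0.48 without Cas-20% liver 1, and the highest edgeR adjusted p was 0.149. On Soy-20% + SAA it ran from 974 to 3338 (median 1812) and on Soy-10% from 500 to 981 (median 715), a fall of 2.69-fold (log2 change −1.43 ± 0.26 SE, edgeR adjusted p = 0.00318). It was −0.95 with livers 1 and 2 alone (edgeR adjusted p = 0.0358) and −0.98 with the GC slope as covariate (edgeR adjusted p = 0.0683). *Gm35986* and *Gm43072* overlap *Elovl6*.

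*Scd1* (chr19:44394455-44407879), which makes oleate and palmitoleate, had the most reads of the 10 genes and, on Cas-20%, the tightest group. On Soy-20% + SAA it was not tight (coefficient of variation 48.6%). It ran from 72878 to 121121 on Cas-20% (coefficient of variation 15.8%) and from 17251 to 38820 on Cas-5%. The highest Cas-5% value is liver 5, and the next was 23009. The fall was 4.37-fold with no overlap (log2 change −2.13 ± 0.19 SE, edgeR adjusted p = 4.84e-07). Soy-20% livers ran from 46954 to 79433 and Soy-10% livers from 23558 to 48668. Here *Scd1* was the gene of the 10 that was called against Soy-20% (log2 change −0.93 ± 0.17 SE, edgeR adjusted p = 0.0122), and it kept that call in 12 of 12 fits without 1 liver. Against Soy-20% + SAA the change was −1.28 (edgeR adjusted p = 0.00922), and −1.001 with livers 1 and 2 alone (edgeR adjusted p = 0.0639).

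*Me1* (chr9:86581371-86695953), the NADPH source, went its own way. Its means were 2128 ± 837 on Cas-20%, 2060 ± 387 on Cas-5%, 3298 ± 1389 on Soy-20%, 2943 ± 1201 on Soy-20% + SAA and 2910 ± 902 on Soy-10% (SD, n = 6). The restricted and control diets overlapped within both protein sources. The log2 change was −0.03 on casein (interval −0.46 to 0.40, edgeR adjusted p = 0.93) and −0.02 on soy against Soy-20% + SAA (interval −0.56 to 0.52, edgeR adjusted p = 0.965). With livers 1 and 2 alone the soy value was 0.13 (interval −0.50 to 0.76). *Gm38230* and *A330041J22Rik* overlap *Me1*.

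*Thrsp* (chr7:97412938-97417730), the thyroid hormone responsive spot protein of lipogenic tissues, fell most among the 10 on casein. Its normalized read counts ran from 2612 to 10055 on Cas-20% (median 4089) and from 352 to 1019 on Cas-5% (median 491). No Cas-5% liver reached any Cas-20% liver, and the fall was 8.66-fold (log2 change −3.11 ± 0.36 SE, edgeR adjusted p = 7.73e-06). Soy-10% livers ran from 412 to 2396 (median 1299) and Soy-20% + SAA livers from 2461 to 12282 (median 5421), again without overlap, a fall of 4.99-fold (log2 change −2.32 ± 0.41 SE, edgeR adjusted p = 0.00301). It was −1.28 with livers 1 and 2 alone (edgeR adjusted p = 0.104). Against Soy-20%, from 1221 to 8605, it was −1.63 (interval −2.59 to −0.67, edgeR adjusted p = 0.116).

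*Pnpla3* (chr15:84167837-84187236) was the scarcest of the 10, with 2 to 165 raw reads per liver. On Cas-20% the normalized read counts were 152, 58.8, 135, 10.6, 21.9 and 3.32, so the range within the diet was 45.8-fold. On Cas-5% they ran from 5.82 to 27.7, inside the Cas-20% range. The fall was 4.41-fold with a wide interval (log2 change −2.14, interval −3.55 to −0.73, edgeR adjusted p = 0.0267), and it was called in 7 of the 12 fits without 1 liver. The call was lost without Cas-20% liver 1 or 3 or Cas-5% liver 3, 4 or 6, with a highest edgeR adjusted p of 0.0763 and an estimate of −1.68 without Cas-20% liver 1. It was lost as well with the GC slope as covariate (edgeR adjusted p = 0.0814). On Soy-10% it ran from 3.05 to 18.1 and on Soy-20% + SAA from 6.71 to 154, a log2 change of −2.40 (edgeR adjusted p = 0.0179), and −1.73 with livers 1 and 2 alone (edgeR adjusted p = 0.0793).

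The control diets were compared next, to ask whether protein source or added sulfur amino acids alone set the level of these genes. Of the 10, 1 differed between Cas-20% and Soy-20% + SAA, and it was *Srebf1*. It was 4.09-fold higher on Cas-20% (log2 difference 2.03, interval 1.39 to 2.68, edgeR adjusted p = 0.0134), and no liver of Soy-20% + SAA reached a liver of Cas-20%. In that comparison 2.43% of 11988 genes were called and 1.42% called higher, and 1.5% were higher without overlap. The difference was 1.35 with Soy-20% + SAA livers 1 and 2 alone (interval 0.78 to 1.93, edgeR adjusted p = 0.252, with 0.024% of genes called) and 1.61 with the GC slope as covariate (edgeR adjusted p = 0.0641). Of 5 red blood cell markers, 4 were also higher on Cas-20% than on Soy-20% + SAA, with a median log2 difference of 0.77, and their part in the *Srebf1* difference was not tested. Soy-20%, which has no library that stands apart, was set against Cas-20% after the data had been seen. In this pair protein source and methionine (0.22 g against 0.57 g per 100 g) differ together and cannot be told apart. There *Srebf1* was 2.18-fold higher on Cas-20% (log2 difference 1.13 ± 0.21 SE, edgeR adjusted p = 0.0117) and *Scd1* 1.59-fold higher (log2 difference 0.67 ± 0.13 SE, edgeR adjusted p = 0.0119), with 2.69% of 11875 genes called and 1.45% called higher. *Fasn* and *Thrsp* were not called between Cas-20% and Soy-20%, with intervals from −0.44 to 1.58 and from −0.65 to 1.34.

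Between Soy-20% and Soy-20% + SAA, 0 of the 10 were called by edgeR, with 0.00838% of 11932 genes called, and 0 by DESeq2, with 7.42% called. *Srebf1* came nearest to a call by edgeR, at 0.91 higher on Soy-20% on the log2 scale (interval 0.26 to 1.57, edgeR adjusted p = 0.102). It was called without Soy-20% + SAA liver 1 or liver 2, with a lowest edgeR adjusted p of 0.0238 and an estimate of 1.14 without liver 1. With those 2 livers alone, in turn, it was 0.23 (interval −0.35 to 0.81). For *Fasn* the value was −0.64 with all livers (interval −1.57 to 0.30) and 0.06 with livers 1 and 2 alone.

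The restricted diets were also set side by side. Of the 10 genes, 2 differed between Cas-5% and Soy-10%, with 10.7% of 12041 genes called, 4.59% higher on Cas-5% and 6.14% lower. *Acaca* was 1.58-fold higher on Cas-5%, from 392 to 591 against 235 to 419 on Soy-10%, with a small overlap (log2 difference 0.66 ± 0.12 SE, edgeR adjusted p = 0.00154). *Thrsp* was 2.19-fold lower on Cas-5% (log2 difference −1.13 ± 0.30 SE, edgeR adjusted p = 0.0214). The *Thrsp* call was lost without Soy-10% liver 6, at −0.89 (edgeR adjusted p = 0.0531). The count of called genes was 4 without Cas-5% liver 5 and 4 without Soy-10% liver 1. *Srebf1* differed by −0.19 (interval −0.41 to 0.04) and *Fasn* by 0.16 (interval −0.24 to 0.57), so on both restricted diets these genes lay within 1.5-fold of each other at 95% confidence.

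Whether the 2 restrictions differed was tested in 24 livers by subtracting the soy change from the casein change. Of the 10 genes, *Srebf1* was the 1 called, with 8.69% of 12532 genes called and 5.49% called below 0. The difference was −2.23 on the log2 scale (interval −2.92 to −1.54, edgeR adjusted p = 0.000298), and it was called in 24 of 24 fits without 1 liver. Most of it lay between the controls, where Cas-20% was above Soy-20% + SAA by 2.03, while Cas-5% differed from Soy-10% by −0.19. The casein change less the soy change was −1.55 with Soy-20% + SAA livers 1 and 2 alone (edgeR adjusted p = 0.00312), −1.89 with the GC slope as covariate (edgeR adjusted p = 0.000732) and −1.32 when Soy-20% served as the soy control (edgeR adjusted p = 0.00225), where 5.99% of 12450 genes were called, 3.57% below 0. With Soy-20% as control the restrictions are not matched. Methionine falls from 0.57 to 0.15 g per 100 g on casein and from 0.22 to 0.13 g on soy. With that control *Scd1* was called as well, at −1.20 (edgeR adjusted p = 0.00573), against −0.86 with Soy-20% + SAA (edgeR adjusted p = 0.121). For *Fasn* the difference was 0.23 (interval −0.77 to 1.22), and it was −0.41 (interval −1.57 to 0.74) with Soy-20% as control. Both intervals include 0, and they reach beyond 1 log2 unit on opposite sides.

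**Figure D3:**
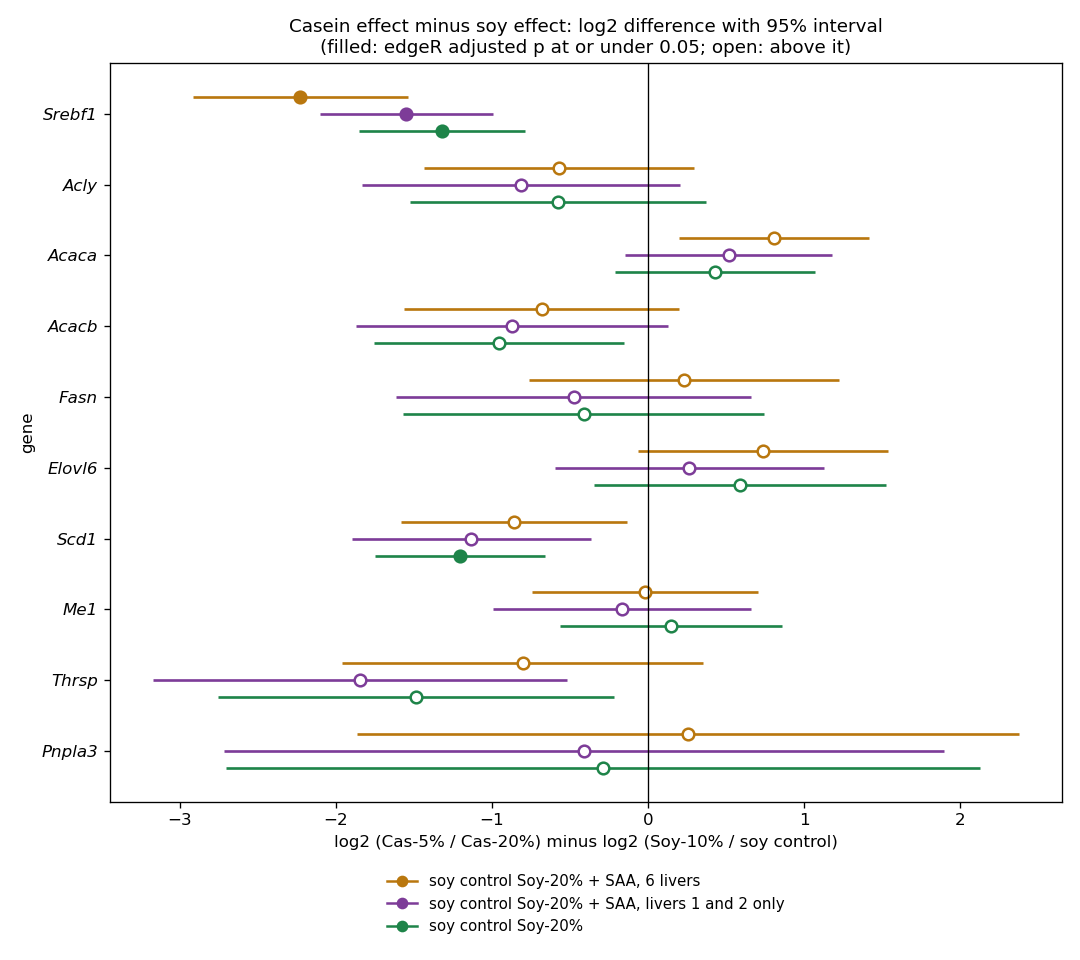
Casein change less the soy change for each gene (x axis, log2 units) with 95% intervals, for 3 choices of the soy control. Filled points are called at an edgeR adjusted p of 0.05. Srebf1 is filled under all 3 choices, at −2.23, −1.55 and −1.32, and Scd1 under the Soy-20% control, at −1.20. The Soy-20% control is not matched to Cas-20% in methionine and cysteine.

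The diets were ordered by the mean log2 level of each gene over 6 livers. For *Srebf1* the order was Cas-20%, Soy-20%, Soy-10%, Cas-5% and Soy-20% + SAA. Soy-20% + SAA stood first for *Fasn*, *Thrsp*, *Elovl6*, *Pnpla3* and *Acaca*, and Cas-20% stood first for *Acly*, *Acacb* and *Scd1*. With Soy-20% + SAA livers 1 and 2 alone, Cas-20% was above Soy-20% + SAA by 0.63 for *Fasn*, 0.70 for *Thrsp*, 0.16 for *Elovl6*, 0.86 for *Pnpla3* and 0.14 for *Acaca*, none of them called, so these first places rest on livers 3 to 6. The last place of Soy-20% + SAA for *Srebf1* rests on them too, since livers 1 and 2, at 635 and 551, were above all Cas-5% and Soy-10% livers. For *Me1* the 3 soy diets stood above both casein diets. Of 40 pairs of neighbours in these orders, 0 differed after adjustment in the two-sided exact permutation test, and the smallest adjusted p was 0.13. The smallest possible p with 6 livers against 6 is 0.0022, so 1 pair alone could not pass adjustment over 40. Neighbours were also set by these same means, so the test cannot show that their levels are equal. For *Srebf1* the steps were 1.13 from Cas-20% to Soy-20% (unadjusted p = 0.00649, exact permutation test), then 0.56, 0.20 and 0.24 log2 units. For *Scd1* the largest step was 0.96, from Soy-20% to Soy-10% (unadjusted p = 0.00433, exact permutation test). The steps of 1.13 for *Srebf1* and 0.96 for *Scd1* were called by edgeR, as given above.

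Livers of the same diet differed in *Srebf1* too, and the other genes were set against it after each diet's mean was removed. Over 30 livers, *Pnpla3* had a Pearson r of 0.526 (adjusted permutation p = 0.0913) and a Spearman rho of 0.531 (adjusted permutation p = 0.0766), and *Acly* an r of 0.435 and a rho of 0.479 (adjusted permutation p of 0.163 and 0.08). For *Fasn* r was 0.386 and rho 0.463 (0.184 and 0.08). Of 9 genes, 0 passed. The 2 livers farthest from the median of *Srebf1* were Soy-20% + SAA 4 and 1, and without them r was 0.491 for *Pnpla3*, 0.387 for *Acly* and 0.467 for *Fasn*. In the 26 livers without Soy-20% + SAA 3 to 6, 7 of the 9 passed. Only these 9 genes were put to this test, and the share of all genes that would pass was not measured. The count of 7 therefore cannot be read as particular to lipogenic genes. The raw levels show the same split between 26 and 30 livers. Over the 26 livers, differences between diets included, r of the log2 levels with *Srebf1* was 0.861 for *Scd1*, 0.816 for *Fasn* and 0.803 for *Thrsp*, and over all 30 it was 0.509, 0.361 and 0.346. These last values describe livers that share diets and are not a test. *Me1* had an r of 0.0151 over 26 livers.

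**Figure D4:**
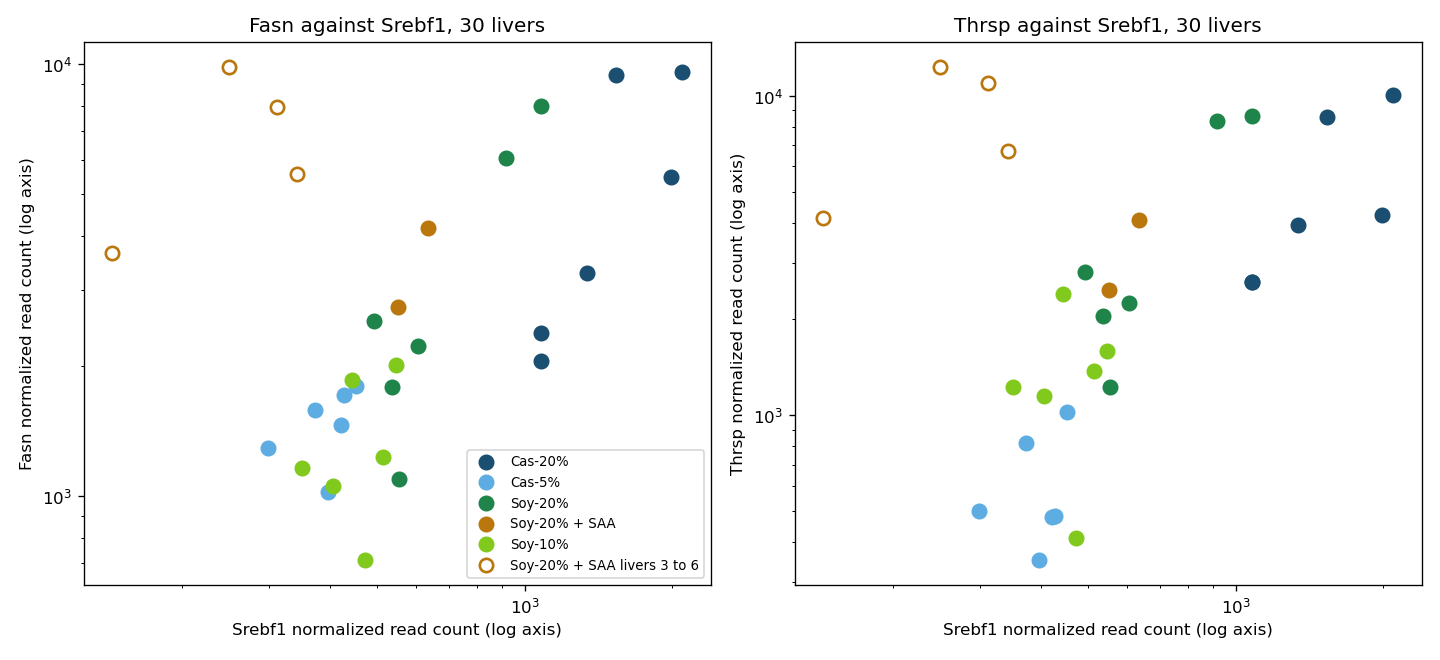
Fasn (left) and Thrsp (right) against Srebf1 in normalized read counts on log axes, 1 point per liver, coloured by diet. Open points are Soy-20% + SAA livers 3 to 6, which lie at the upper left, with 144 to 344 reads of Srebf1 and 3648 to 9854 of Fasn, while the other 26 livers rise from lower left to upper right.

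The genes around the pathway were read from hand-written lists. Beside each list's count stand the shares of all genes called, 24.9% on casein and 17.0% on soy against Soy-20% + SAA. Called lower were 13.3% and 8.47%. Of 24 regulators, 13 (54.2%) changed on Cas-5%, 5 up and 8 down, and 5 (20.8%, near the share of all genes) changed on Soy-10% against Soy-20% + SAA, 2 up and 3 down. With livers 1 and 2 alone that soy count was 0, where 2.54% of all genes were called. *Fbxw7*, the ubiquitin ligase receptor that marks nuclear SREBPs for destruction, rose on Cas-5% by 0.58 (edgeR adjusted p = 2.76e-05), and its soy change was 0.10 (edgeR adjusted p = 0.438). The difference between both, 0.48, was called (edgeR adjusted p = 0.00957), and it was 0.53 with livers 1 and 2 alone (edgeR adjusted p = 0.0229) and 0.67 with Soy-20%, not matched in methionine, as control (edgeR adjusted p = 5.93e-05). *Insig2*, which holds the SREBP escort Scap in the endoplasmic reticulum, fell on Cas-5% by 0.84 (edgeR adjusted p = 1.74e-06) with a soy change of −0.004, which was −0.24 with livers 1 and 2 alone (edgeR adjusted p = 0.554). Its difference of −0.84 was called (edgeR adjusted p = 0.00883) and was not with livers 1 and 2 alone (−0.61, edgeR adjusted p = 0.115). *Trib1*, a pseudokinase tied to hepatic lipogenesis, fell on Cas-5% by 0.64 (edgeR adjusted p = 0.000278) and on Soy-10% by 0.38 (edgeR adjusted p = 0.0214), the latter −0.08 with livers 1 and 2 alone (edgeR adjusted p = 0.724).

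Of 16 genes of carbon and NADPH supply, 11 (68.8%, against 24.9% of all genes) fell on Cas-5% and 4 (25.0%, against 17.0%) on Soy-10% against Soy-20% + SAA, 1 of 16 with livers 1 and 2 alone (2.54% of all genes), and 0 rose in either. Cytosolic malate dehydrogenase (*Mdh1*), which makes the substrate of malic enzyme, fell on casein by 0.68 (edgeR adjusted p = 3.12e-06) with −0.14 on soy (edgeR adjusted p = 0.203), a difference of −0.54 (edgeR adjusted p = 0.00236) that was −0.71 with livers 1 and 2 alone (edgeR adjusted p = 0.000969). *Taldo1* of the pentose phosphate pathway fell on casein by 0.39 (edgeR adjusted p = 0.000789), with −0.18 on soy (edgeR adjusted p = 0.145), and −0.08 with livers 1 and 2 alone (edgeR adjusted p = 0.7).

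Of 20 tested genes of elongation, desaturation and activation, 10 (50.0%, against 24.9% of all genes) fell on Cas-5% and 0 rose. Of 19 tested on soy, 7 fell and 3 rose against Soy-20% + SAA (52.6%, against 17.0%), and with livers 1 and 2 alone 5 fell and 1 rose, where 2.54% of all genes were called. The polyunsaturated fatty acid desaturases fell in both, *Fads2* by 1.57 and 1.40 (edgeR adjusted p = 8.33e-08 and 0.000881) and *Fads1* by 0.92 and 0.89 (edgeR adjusted p = 8.98e-08 and 0.00122), as did the desaturase electron donor *Cyb5r3*, by 0.996 and 0.68 (edgeR adjusted p = 1.74e-06 and 0.00151). All 3 were also called with livers 1 and 2 alone, at −0.89, −0.58 and −0.49. Against Soy-20%, none of the 3 was called (−0.29, −0.25 and −0.34, edgeR adjusted p = 0.396, 0.305 and 0.074). When Soy-20% was the control, which makes the methionine step smaller on soy than on casein, the casein change less the soy change was −1.28 for *Fads2* (edgeR adjusted p = 7.38e-05), −0.68 for *Fads1* (edgeR adjusted p = 0.00121) and −0.66 for *Cyb5r3* (edgeR adjusted p = 0.00259).

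Of 15 tested genes of glycerolipid synthesis, 8 (53.3%, against 24.9% of all genes) fell on Cas-5% and 4 (26.7%, against 17.0%) on Soy-10% against Soy-20% + SAA, and 0 were called with livers 1 and 2 alone (2.54% of all genes). *Gpam*, the first acyltransferase of triglyceride synthesis, fell by 2.01 (edgeR adjusted p = 0.000215) and 1.47 (edgeR adjusted p = 0.00382), and the latter was −0.99 with livers 1 and 2 alone (edgeR adjusted p = 0.0512). *Pcyt2*, of phosphatidylethanolamine synthesis, fell by 0.34 (edgeR adjusted p = 0.00175) and 0.56 (edgeR adjusted p = 0.00614), and the latter was −0.27 with livers 1 and 2 alone (edgeR adjusted p = 0.298). The lipid droplet gene *Cidec* fell on casein by 1.50 (edgeR adjusted p = 0.0328), with −0.17 on soy (edgeR adjusted p = 0.789) and 0.14 with livers 1 and 2 alone (edgeR adjusted p = 0.916), and was 2.93 lower on Cas-5% than on Soy-10% on the log2 scale (edgeR adjusted p = 9.33e-06). Of 20 cholesterol genes driven by SREBF2, 6 (30.0%) fell on Cas-5%, where 13.3% of all genes were called lower. On Soy-10% against Soy-20% + SAA 14 (70.0%) fell, where 8.47% were called lower. With livers 1 and 2 alone 2 of 20 were called, where 2.54% of all genes were called. The median log2 changes of this list on casein and soy were −0.47 and −0.68, against 0.016 and −0.0097 over all genes. *Dhcr7* changed by −1.17 and −1.02 (edgeR adjusted p = 0.000373 and 0.00323), and *Sc5d* by −0.78 and −0.60 (edgeR adjusted p = 0.000487 and 0.0067). The soy value of *Dhcr7* was −0.84 with livers 1 and 2 alone and was no longer called (edgeR adjusted p = 0.0639), and that of *Sc5d* was −0.65 (edgeR adjusted p = 0.0117). Against Soy-20%, 0 genes of these 5 lists were called, with 0.866% of all genes called.

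The genes most like the 10 were found from the mean z score of the 10 over 30 livers, among 12023 genes. They were the sterol desaturase *Sc5d* (Pearson r = 0.946), *Gpam* (0.943), *Acat2* (0.924), the acetyl-CoA synthetase *Acss2* (0.909) and *Pgd* of the NADPH-forming pentose phosphate pathway (0.906), and over 26 livers the values lay between 0.893 and 0.944. The genes most like *Srebf1* were others, with *Mlx*, the partner of ChREBP, at 0.929, the amino acid catabolic enzymes *Tat* and *Sds* at 0.900 and 0.887, *Rnf181* at 0.877 and *Hs6st1* at 0.873. Of the 9 other members, *Acly* came closest to *Srebf1* over 30 livers, and 692 genes outside the 10 lay above it. Livers share diets and libraries share GC trends, so these are descriptions.

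Liver identity and admixture were read from marker lists. The 9 hepatocyte markers summed to between 767036 and 1008630 normalized reads per liver, and 0 were at 0. Of 8 adipocyte markers, *Adipoq*, *Lep*, *Plin1* and *Retn* were absent from the count table. The other 4 were analysed (*Cfd*, *Pparg*, *Fabp4* and *Lipe*), of which 2 fell on Cas-5% (13.3% of all genes were called lower there). Their sum was 587 to 1159 on Soy-20%, 451 to 812 on Soy-20% + SAA and 583 to 1358 on Soy-10%. Of 5 red blood cell markers, 4 fell on Cas-5%. Sums of the 8 Kupffer cell and leukocyte markers overlapped between all diets, from 1756 to 4904, and 0 of 8 changed on Cas-5%. The 10 stellate and endothelial markers summed to 5684 to 6673 on Cas-20% and 6605 to 8049 on Cas-5%, and 3 of 10 rose, where 11.6% of all genes were called higher. The 6 pancreatic acinar markers analysed lay between 164 and 629 outside Soy-10% and reached 6910 in a Soy-10% liver. The 5 skeletal muscle markers ran from 34.8 to 73.1 on Soy-20%, from 28.1 to 47.0 on Soy-20% + SAA and from 15.2 to 38.8 on Soy-10%, all above the Cas-20% livers. The part of these markers in the lipogenic results was not tested.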

How the data were processed

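Total RNA of 30 livers was made into QuantSeq 3′ FWD libraries and sequenced on a NextSeq 500, and the reads were processed by the authors with the Bluebee QuantSeq pipeline. Read length is given differently by the paper and the labels, and the aligner, counting tool and strand setting are not given in the sources used here. The deposited raw counts were made by the authors by assigning reads to genes on GRCm38, without normalization. The deposited normalized signal was made by the authors with DESeq2 1.30 in R 4.0.3, from the submitters' processing notes, as counts divided by library size factors (0.759 to 1.297). Each gene in the table had a total of at least 90 reads.

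Symbols missing for 1718 genes were filled from GENCODE M21 for 1684. Genes were kept by filterByExpr, normalized by TMM and tested with the quasi-likelihood F test of edgeR 4.0.16 in R 4.3.3, two-sided, with Benjamini-Hochberg adjustment over all genes tested and a call at 0.05. Each comparison used the livers of its own diets. Levels are the deposited normalized counts, and the counting error of a value follows from its reads. Neighbouring diets were compared with exact permutation tests on log2 CPM (prior count 2), and correlations within diets with 100000 shuffles within diets, in scipy 1.17.1. Alternatives were DESeq2 1.42.0, limma 3.58.1 (voom with sample weights), other normalizations and filters, all 30 livers in one fit, a replicate block, the library GC slope as a covariate, other soy controls and leaving out each liver. The edgeR and permutation steps were tested on simulated data. No 2 libraries were identical. The labels describe separate mice per diet but do not tie each library to 1 mouse, so p-values measure the spread between these libraries, which may in part be technical.

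All 10 genes were named, with the 3 genes of each pathway list that had the smallest adjusted p over all 5 diets, and the 5 genes most correlated with *Srebf1* and with the mean of the 10 (mean of at least 10 counts per liver). Some genes that this rule names are not reported here. The 10 genes and all lists were chosen with earlier results of these data known. Lists held 24 regulators, 16 carbon and NADPH supply, 22 elongation, desaturation and activation, 16 glycerolipid synthesis and 20 SREBF2 target genes, besides the cell type markers.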

Additional observations from a re-analysis of the deposited data

Results flagged for a closer look

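*Srebf1* was set apart by a test of the difference between restrictions. The casein change less the soy change was −2.23 on the log2 scale (edgeR adjusted p = 0.000298), with −1.93 on casein and 0.29 on soy. All 6 Cas-5% livers lay below all 6 Cas-20% livers. Cas-20% stood above Soy-20% + SAA by 2.03, while Cas-5% differed from Soy-10% by −0.19. Livers 3 to 6 of Soy-20% + SAA are the libraries that stood apart in GC slope. With livers 1 and 2 alone the difference between restrictions was −1.55, and it was also called with the GC slope as covariate, as given above. Beyond these fits, the part of the slopes in the soy value was not tested.

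Among 50 groups of 6 livers (10 genes in 5 diets), 2 held a liver far from the others by Dixon's criterion, where chance alone gives about 1 in 20. *Scd1* was at 38820 in Cas-5% liver 5, with the next liver at 23009, and without that liver the casein effect was −2.35. *Pnpla3* was at 151 in Soy-20% liver 1, with the next liver at 34.8.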

How the results depend on the processing

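Across the comparisons, 692 values under alternatives other than leaving out 1 liver comprised 614 with the same direction and call, 26 that lost a call, 13 that gained one and 39 that changed sign, and of 1260 values with 1 liver left out the counts were 1167, 19, 24 and 50. The cause was not tested. DESeq2, RLE normalization and both filters changed no sign.

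Counts of called genes among the 10 moved by over 1.5 times in these cases. Smaller moves were from 7 to 6 for Cas-5% against Cas-20% with the GC slope and with voom, and over all 5 diets from 9 to 7 with the GC slope and to 8 with voom and with livers 1 and 2 only, besides moves from 8 to 7 for Soy-10% against Soy-20% + SAA with all 30 livers and with the replicate block. A filter of at least 10 counts in every liver removed *Pnpla3* and gave 6, 7 and 8 in these same 3 comparisons, Cas-5% against Cas-20%, Soy-10% against Soy-20% + SAA and all 5 diets. Among all genes, Soy-20% against Soy-20% + SAA called 1 gene by edgeR, 885 by DESeq2, 1692 by voom and 1793 with all 30 livers in one fit. For Soy-10% against Soy-20% + SAA the count went from 8 to 1 with the GC slope and to 2 with livers 1 and 2 only. For Soy-10% against Soy-20% it went from 1 to 3 with DESeq2, 2 with voom and 0 with all 30 livers in one fit. For Soy-20% against Soy-20% + SAA it went from 0 to 1 with all 30 livers and to 1 with voom. For Cas-20% against Soy-20% + SAA it went from 1 to 0 with the GC slope, 0 with livers 1 and 2 only and 2 with Soy-20% in place of Soy-20% + SAA, an alternative chosen after seeing the data. For Cas-5% against Soy-10% it went from 2 to 0 with all 30 livers and 5 with the replicate block. For the difference between restrictions it went from 1 to 2 with the replicate block, 3 with voom and 2 with Soy-20% as control. Correlations with *Srebf1* within diets that passed went from 0 to 7 without Soy-20% + SAA livers 3 to 6. With 1 liver left out the counts ran from 6 to 8 for Cas-5% against Cas-20%, 7 to 8 for Soy-10% against Soy-20% + SAA, 1 to 6 against Soy-20% (6 without Soy-20% liver 3), 0 to 1 for Soy-20% against Soy-20% + SAA, 1 to 1 for Cas-20% against Soy-20% + SAA, 1 to 4 for Cas-5% against Soy-10% (1 without Soy-10% liver 6), 1 to 2 for the difference (2 without Cas-20% liver 1 or 3, Cas-5% liver 5 or Soy-20% + SAA liver 2 or 5) and 8 to 9 over all diets.

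Same-numbered livers did not deviate together. The mean correlation of their deviations was 0.022 over 60 pairs, against −0.00443 for 300 other pairs, and between 0 and 2 of 6 pairs were over 0.1 in any comparison of 2 diets, so livers share only a number. With the block 7, 7, 1, 0, 1, 5, 2 and 9 genes were called in the 8 comparisons, in the order given above.

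Signs that turned were these, in log2 units. With Soy-20% + SAA livers 1 and 2 only, Soy-10% against Soy-20% + SAA gave *Srebf1* −0.39 and *Me1* 0.13. Soy-20% against Soy-20% + SAA gave *Acly* 0.24, *Elovl6* 0.33, *Fasn* 0.06, *Pnpla3* 0.12 and *Thrsp* 0.36. Cas-20% against Soy-20% + SAA gave *Acaca* 0.14, *Elovl6* 0.16, *Fasn* 0.63 and *Thrsp* 0.70, and the difference of effects gave *Fasn* −0.48 and *Pnpla3* −0.41. With the GC slope the same 4 gave *Srebf1* −0.22 and *Me1* 0.15, then *Acly* 0.25, *Elovl6* 0.31, *Pnpla3* 0.21, *Scd1* 0.04 and *Thrsp* 0.22, then *Acaca* 0.14, *Elovl6* 0.09, *Fasn* 0.52 and *Thrsp* 0.48, then *Fasn* −0.28 and *Pnpla3* −0.33. With Soy-20% as control the difference was −0.41 for *Fasn*, 0.15 for *Me1* and −0.29 for *Pnpla3*, and Cas-20% against Soy-20% gave *Acaca* 0.23, *Fasn* 0.57 and *Thrsp* 0.34. With the replicate block Cas-5% against Cas-20% gave *Acaca* 0.03 and *Me1* 0.04, and Soy-10% against Soy-20% + SAA gave *Me1* 0.04. With voom these were 0.03, 0.01 and 0.02, and *Pnpla3* was −0.41 in Cas-20% against Soy-20% + SAA. None of these values was called.

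With 1 liver left out, values that crossed 0 ran from −0.15 to 0.11 for *Acaca* and from −0.15 to 0.11 for *Me1* in Cas-5% against Cas-20%. *Me1* ran from −0.19 to 0.17 in Soy-10% against Soy-20% + SAA, −0.35 to 0.01 against Soy-20% and −0.02 to 0.36 in Soy-20% against Soy-20% + SAA, where *Acly* ran from −0.32 to 0.22, *Elovl6* from −0.46 to 0.07 and *Pnpla3* from −1.74 to 0.09. In Cas-20% against Soy-20% + SAA *Acacb* ran from −0.14 to 0.27, *Fasn* from −0.32 to 0.15 and *Pnpla3* from −0.27 to 0.81. *Acly* ran from −0.17 to 0.10 in Cas-5% against Soy-10%, and in the difference *Fasn* ran from −0.002 to 0.47, *Me1* from −0.21 to 0.15 and *Pnpla3* from −0.37 to 0.72. With 2 to 165 raw reads, *Pnpla3* has the least depth of the 10.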

Other observations

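Reads of *Fasn* per read of *Srebf1* in the same library ran from 1.9 to 6.15 on Cas-20%, 2.58 to 4.33 on Cas-5%, 1.98 to 7.4 on Soy-20% and 1.5 to 4.18 on Soy-10%. On Soy-20% + SAA they were 6.58 and 4.97 in livers 1 and 2, and 16.2, 25.4, 39.6 and 25.5 in livers 3 to 6. Reads of *Thrsp* per read of *Srebf1* ran from 2.13 to 5.58 on Cas-20%, 0.888 to 2.25 on Cas-5%, 2.21 to 9.06 on Soy-20% and 0.871 to 5.4 on Soy-10%. On Soy-20% + SAA they were 6.42 and 4.47 in livers 1 and 2, and 19.5, 28.7, 49.4 and 35.1 in livers 3 to 6. A quotient within a library does not depend on its size factor.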
